A study of Mus musculus with 6 samples.

Results

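Chemokines and their receptors were read in mouse liver on 6 Affymetrix MG-430 PM arrays. The members are the probe sets that name exactly 1 gene and whose gene symbol is Ccl, Cxcl, Ccr or Cxcr with a number, or Cx3cl1, Cx3cr1, Xcl1 or Xcr1. This gave 78 of the 45037 tested probe sets, which stand for 49 genes, 30 for ligands and 19 for receptors. Another 6 probe sets name a chemokine together with a further gene and were not counted as members. The livers came from male C57BL/6J mice, 8 in each of 3 groups. The mice were 6 weeks old at the start, before acclimatization and treatment, and older when the livers were taken. NASH+ISO mice had the same NASH induction as the NASH group and received isorhamnetin, a flavonol, by mouth at 50 mg/kg daily from day 11 to day 24. NASH mice had a diet with 60% of its calories as fat until day 24, together with 4 injections of CCl4 at 0.1 ml/kg from day 14 and 5 injections of T0901317 at 2.5 ml/kg from day 20 to day 24. CCl4 injures hepatocytes, T0901317 activates the LXR receptors that raise lipid synthesis, and the shares of diet, CCl4 and T0901317 in any difference cannot be told apart. CTL mice had normal chow and the vehicles. Each group has 2 arrays, which the sample labels call technical repeats, and the sources do not say how many mice were behind each. Errors and p-values therefore measure the spread between arrays.

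Chemokines are small secreted proteins that draw leukocytes along a gradient and act through receptors coupled to G proteins. Inflammatory chemokines are induced in hepatocytes, Kupffer cells, stellate cells and sinusoidal endothelium when the liver is injured, and they recruit monocytes, neutrophils and T cells. Homeostatic chemokines such as Cxcl12 are made without injury and place cells in a tissue. The receptors sit mostly on the leukocytes, so in whole liver their level follows both the number of such cells and the RNA each cell holds, and fewer cells of a type and less RNA per cell cannot be told apart.

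Values are log2 expression, made per the study's methods by the robust multi-array average (RMA), and a level is set only against the same probe set on other arrays. The highest mean among 17 control probe sets with no mouse target was 2.80 log2, and this was used as a guide to background. Of the 49 genes, 33 had a mean above the guide on their brightest probe set, 23 ligands and 10 receptors. The other 16 had means of 1.61 to 2.68 log2, and they are Ccl3, Ccl7, Ccl11, Cxcl2, Cxcl3, Cxcl5, Ccr1, Ccr3, Ccr8, Ccr9, Cxcr4, Cxcr5, Cxcr6, Cxcr7, Xcl1 and Xcr1. By probe set, 60.26% of the members lay above the guide, against 66.95% of all tested probe sets. The median distance between the 2 arrays of a group over the members was 0.0518 log2 in NASH+ISO, 0.0535 log2 in NASH and 0.0612 log2 in CTL. The tissue label was checked on the hepatocyte genes Alb, Apoa1 and Ttr, which lay between 12.19 and 12.64 log2 on all 6 arrays. Hnf4a, a transcription factor of hepatocytes, was 1.21 log2 lower in NASH than in CTL.

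In NASH against CTL, the question was what the induced disease did to chemokine expression. The interferon-induced ligands Cxcl9, Cxcl10 and Cxcl11, the CC ligands Ccl5, Ccl6 and Ccl9, and the receptor Cxcr3 were higher in NASH. The neutrophil ligand Cxcl1 and the skin ligand Ccl27a were lower, together with smaller falls of Ccl28, Ccr6 and Cxcr2. At an adjusted p under 0.05, 16 of the 78 member probe sets were higher and 19 were lower, where 22% of all probe sets were higher and 27.2% were lower. The share of members called was thus near that of all probe sets. With each array centred on its median, the members split into 18 higher and 14 lower, and all probe sets turned likewise, with 11488 higher and 9640 lower against 9924 and 12228 without centring. By the thresholds of the study, a fold change of at least 2 with an unadjusted p under 0.05, 5 member probe sets were higher and 4 lower, against 2.49% and 1.11% of all probe sets. The 5 higher were both Ccl6 probe sets and 1 each of Ccl9, Cxcl9 and Cxcl11, and the 4 lower were all 3 Cxcl1 probe sets and Ccl27a. Among probe sets above the guide, 31.91% of the members differed by more than 0.5 log2, against 19.21% of all.

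**Figure D1:**
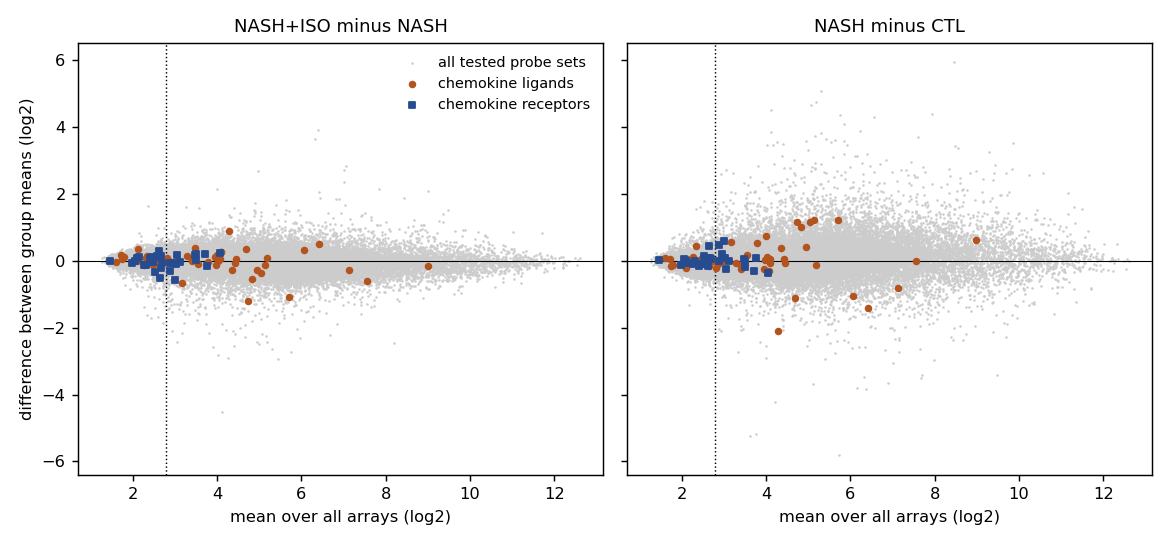
Difference between group means (log2, y axis) against the mean over all arrays (log2, x axis) for NASH+ISO minus NASH on the left and NASH minus CTL on the right. Grey points are all 45037 tested probe sets, orange circles the ligand probe sets, blue squares the receptor probe sets, and the dotted line is the background guide at 2.80 log2. Receptor probe sets sit close to the guide and close to a difference of 0, while several ligand probe sets lie more than 1 log2 from 0 in NASH minus CTL.

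Promoters are shown for Cxcl1, the gene with the largest fall, with its paralogs Cxcl2 and Cxcl3, for Cxcl9 and Cxcl10, which both rose, and for Ccl6, the gene with the largest rise. Each runs 5′ to 3′ from 250 bases before to 50 bases after the start site, from RefSeq (GRCm38.p6). Capitals mark matches, on either strand, to 3 motifs, which are GGGA, any 2 bases and TTCC for NF-kB, GAAA, any 2 bases and GAAA for the interferon-stimulated response element (ISRE), and TGANTCA, with N any base, for AP-1.
Cxcl1, chr5:90890995-90891294, plus strand: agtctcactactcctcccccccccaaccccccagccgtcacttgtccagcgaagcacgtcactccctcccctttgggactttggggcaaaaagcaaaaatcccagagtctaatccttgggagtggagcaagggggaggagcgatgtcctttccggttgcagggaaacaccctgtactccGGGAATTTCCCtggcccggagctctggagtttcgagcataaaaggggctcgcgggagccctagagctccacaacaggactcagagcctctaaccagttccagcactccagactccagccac
Cxcl2, chr5:90903649-90903948, plus strand: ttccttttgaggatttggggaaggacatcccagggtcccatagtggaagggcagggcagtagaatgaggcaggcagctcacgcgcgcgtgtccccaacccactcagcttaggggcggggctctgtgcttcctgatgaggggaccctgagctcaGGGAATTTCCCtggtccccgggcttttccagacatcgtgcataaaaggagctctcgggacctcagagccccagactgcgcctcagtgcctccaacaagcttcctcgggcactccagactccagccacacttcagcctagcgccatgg
Cxcl3, chr5:90785851-90786150, plus strand: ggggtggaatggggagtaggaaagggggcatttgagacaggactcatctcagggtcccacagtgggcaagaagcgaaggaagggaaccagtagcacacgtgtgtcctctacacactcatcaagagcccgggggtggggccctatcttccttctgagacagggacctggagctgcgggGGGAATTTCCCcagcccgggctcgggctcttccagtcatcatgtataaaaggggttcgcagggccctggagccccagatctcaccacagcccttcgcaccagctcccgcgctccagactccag
Cxcl9, chr5:92328030-92328329, minus strand: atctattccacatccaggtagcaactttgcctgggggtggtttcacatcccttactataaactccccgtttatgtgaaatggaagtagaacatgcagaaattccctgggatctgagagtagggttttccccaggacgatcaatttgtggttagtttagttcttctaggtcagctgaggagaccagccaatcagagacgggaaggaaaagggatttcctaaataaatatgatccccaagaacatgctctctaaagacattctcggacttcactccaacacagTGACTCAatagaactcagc
Cxcl10, chr5:92348840-92349139, minus strand: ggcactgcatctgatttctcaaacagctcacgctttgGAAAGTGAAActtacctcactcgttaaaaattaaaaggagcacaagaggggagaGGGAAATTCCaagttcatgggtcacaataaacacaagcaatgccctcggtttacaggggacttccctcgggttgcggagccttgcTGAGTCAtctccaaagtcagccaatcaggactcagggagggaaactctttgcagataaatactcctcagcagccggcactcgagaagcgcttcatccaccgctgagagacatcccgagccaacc
Ccl6, chr11:83593038-83593337, minus strand: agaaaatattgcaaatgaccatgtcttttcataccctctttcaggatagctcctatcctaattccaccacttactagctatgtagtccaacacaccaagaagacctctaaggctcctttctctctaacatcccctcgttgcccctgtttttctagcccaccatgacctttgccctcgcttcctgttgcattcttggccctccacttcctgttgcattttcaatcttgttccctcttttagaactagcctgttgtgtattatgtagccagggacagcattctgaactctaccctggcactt

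The promoter table held 35 of the 49 genes, with 39 promoters. A gene counts as holding a match if any of its promoters does, while the share of all is per promoter, so the units differ. An NF-kB match stood in 6 of these 35 genes (17.1%), namely Ccl1, Ccr3, Cxcl1, Cxcl2, Cxcl3 and Cxcl10, against 1.47% of all 32851 promoters. In Cxcl1, Cxcl2 and Cxcl3 a match on each strand overlapped with an offset of 1 base, the first starting at base -71 from the start site in Cxcl1, -97 in Cxcl2 and -73 in Cxcl3. An ISRE match stood in 2 genes, Cxcl10 and Cxcl14 (5.71%, against 3.44% of all promoters). An AP-1 match stood in 8 genes (22.9%, against 7.81%), among them Cxcl9, Cxcl10, Ccl9 and Ccl27a. No NF-kB, AP-1 and ISRE matches overlapped in the promoters printed, Cxcl10 alone among them held all 3 motifs, and Ccl6 held none in this window. A match describes letters, and whether a factor binds there was not measured.

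Cxcl1 draws neutrophils through Cxcr2. Its brightest probe set (1457644_PM_s_at) read 6.25 and 6.32 log2 in NASH+ISO, 5.80 and 5.75 log2 in NASH, and 7.21 and 7.19 log2 in CTL. The 3 groups did not overlap, with CTL highest and NASH lowest. The level in NASH was 0.373 times that in CTL (-1.42 ± 0.0437 log2, SE, adjusted p = 5.36e-07 by limma). In NASH+ISO it was 1.42-fold that of NASH (adjusted p = 0.000172) and still 0.530 times that of CTL (adjusted p = 5.89e-06). The other probe sets of Cxcl1 moved the same way, by different amounts. The second brightest moved by -1.05 log2 in NASH against CTL and by 0.33 log2 in NASH+ISO against NASH. The dimmest moved by -2.09 log2 in NASH against CTL and by 0.90 log2 in NASH+ISO against NASH. Cxcl2 and Cxcl3, whose promoters share the NF-kB letters with Cxcl1, lay under the guide in all groups, with means of 2.22, 2.35 and 2.23 log2 in NASH+ISO, NASH and CTL for Cxcl2.

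Cxcl9, Cxcl10 and Cxcl11 are genes induced by interferon gamma, and they are known as ligand genes of Cxcr3, a receptor on T cells and NK cells. Only RNA was read, and whether a working protein was made from each in these mice was not measured. Cxcl9 (1418652_PM_at) read 5.12 and 5.20 log2 in NASH+ISO, 5.58 and 5.51 log2 in NASH, and 4.45 and 4.31 log2 in CTL. NASH was highest on both arrays and CTL lowest, with no overlap. The gene was 2.24-fold higher in NASH than in CTL (adjusted p = 5.02e-06) and 0.768 times the NASH level in NASH+ISO (adjusted p = 0.00243). The other Cxcl9 probe set also rose in NASH against CTL (0.73 log2), but its value in NASH+ISO minus NASH was 0.17 log2 with an adjusted p of 0.0608, so the fall with isorhamnetin was seen on 1 of 2 probe sets. With the workbook values in place of the value table, the fall of the brighter set lost its call (-0.24 log2, adjusted p = 0.0527).

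Cxcl11 (1419697_PM_at) read 5.43 and 5.46 log2 in NASH+ISO, 5.57 and 5.58 log2 in NASH, and 4.39 and 4.36 log2 in CTL. NASH+ISO and NASH lay close together and both lay about 1 log2 above CTL. The rise in NASH against CTL was 2.30-fold (adjusted p = 6.44e-07), and NASH+ISO stood 2.10-fold above CTL (adjusted p = 1.72e-06). The difference of NASH+ISO from NASH was -0.13 log2 (adjusted p = 0.0326). It lost its call without any 1 of the 4 arrays compared (adjusted p = 0.0718 to 0.133) and turned to 0.05 log2 with the workbook values. A second Cxcl11 set, under the guide, gave 0.05 log2 in NASH against CTL (adjusted p = 0.427) and was higher in NASH+ISO than in NASH (0.35 log2, adjusted p = 0.00185), a call kept under all 12 alternatives run on it. No direction is therefore given for Cxcl11 between NASH+ISO and NASH.

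Cxcl10 (1418930_PM_at) read 2.93 and 2.89 log2 in NASH+ISO, 3.59 and 3.59 log2 in NASH, and 3.02 and 3.03 log2 in CTL. Both NASH arrays stood above the other 4, which lay near the background guide. The level in NASH was 1.48-fold that of CTL (adjusted p = 2.05e-05), and that in NASH+ISO was 0.624 times that of NASH (adjusted p = 3.11e-05). For NASH+ISO against CTL the difference was -0.12 log2 (adjusted p = 0.0416), and this call was lost without any 1 of the 6 arrays (adjusted p = 0.0696 to 0.151). RNA of these 3 genes, Cxcl9, Cxcl10 and Cxcl11, thus stood in different places in NASH+ISO. Cxcl10 lay within 0.12 log2 of CTL, Cxcl9 0.78 log2 above it and Cxcl11 1.07 log2 above it.

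**Figure D2:**
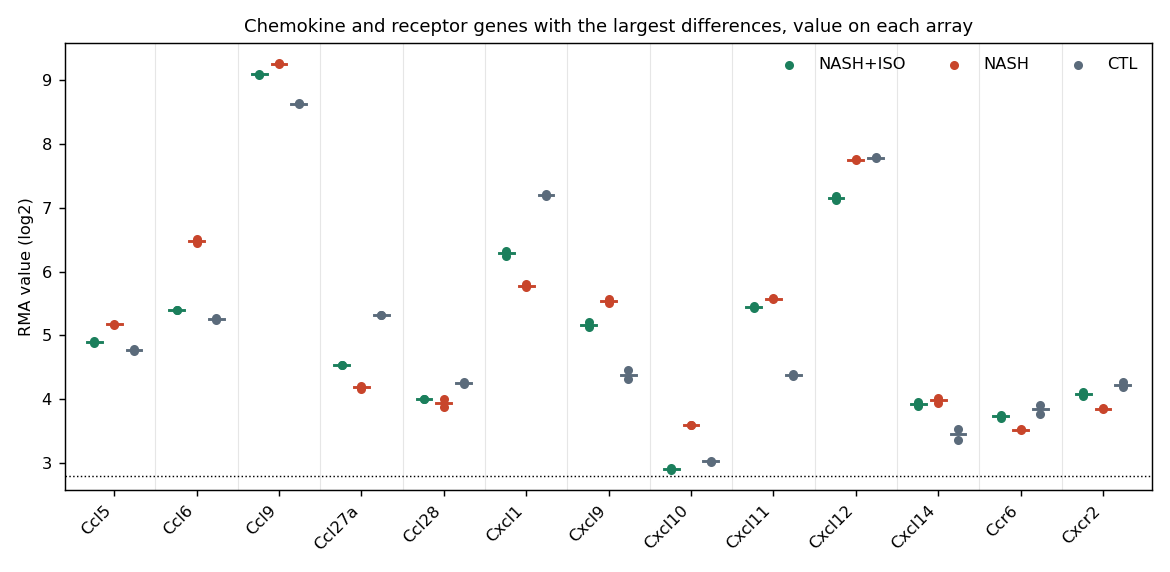
RMA value (log2, y axis) on each array for 13 genes with large differences, on the brightest probe set of each gene. Points are arrays and bars group means, with NASH+ISO in green, NASH in red and CTL in grey, and the dotted line is the background guide at 2.80 log2. Ccl6 and Cxcl10 are high on the NASH arrays alone, Cxcl11 and Cxcl14 are high in NASH+ISO and NASH, Cxcl1 and Ccl27a are highest in CTL, and Cxcl12 is lowest in NASH+ISO.

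Cxcl12 keeps Cxcr4-bearing cells in place and is made by stromal cells and sinusoidal endothelium. Its brightest probe set (1448823_PM_at) read 7.18 and 7.13 log2 in NASH+ISO, 7.76 and 7.75 log2 in NASH, and 7.79 and 7.77 log2 in CTL. NASH+ISO stood below the other groups, which differed by -0.03 log2 (adjusted p = 0.614). The level in NASH+ISO was 0.659 times that of NASH (adjusted p = 5.81e-05) and 0.647 times that of CTL (adjusted p = 2.21e-05). The next probe set (1417574_PM_at) read 6.63 and 6.69 log2 in NASH+ISO, 6.93 and 6.96 log2 in NASH, and 7.76 and 7.78 log2 in CTL. On this set the fall was already present in NASH, at -0.82 log2 against CTL (adjusted p = 4.42e-06), and NASH+ISO stood 0.464 times the CTL level (adjusted p = 1.92e-06). Both sets put NASH+ISO lowest, and they differ on whether NASH differs from CTL. Under quantile normalization the brightest set was also called lower in NASH than in CTL (-0.15 log2, adjusted p = 0.0192).

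Cxcl14, a chemokine made by epithelia without injury, read 3.95 and 3.90 log2 in NASH+ISO, 3.94 and 4.02 log2 in NASH, and 3.53 and 3.37 log2 in CTL (1418456_PM_a_at). NASH+ISO and NASH overlapped, and all 4 of their arrays stood above CTL. It was 1.45-fold higher in NASH than in CTL (adjusted p = 0.000392), with a difference of -0.06 log2 between NASH+ISO and NASH (adjusted p = 0.525). Cxcl13, which draws B cells through Cxcr5, was 0.24 log2 lower in NASH than in CTL (adjusted p = 0.0121), a call lost without CTL array 1 or NASH array 1 (highest adjusted p = 0.0722). Cxcl16, the ligand of Cxcr6, was not called on its brightest probe set, while its other set rose by 0.39 log2 in NASH against CTL (adjusted p = 0.000462) and was 0.29 log2 lower in NASH+ISO than in NASH (-0.29 log2, adjusted p = 0.00337). Cxcl17, found in mucosa, was 0.26 log2 higher in NASH+ISO than in NASH (adjusted p = 0.00987), and lost this call without NASH array 1 or NASH+ISO array 2 (highest adjusted p = 0.0545).

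Among the 16 CC ligands, 3 rose, 4 fell and 9 were not called in NASH against CTL, where 22% of all probe sets were higher and 27.2% lower. Ccl6 and Ccl9 are rodent ligands of Ccr1 made by macrophages and other myeloid cells. In RefSeq, Ccl5, Ccl9, Ccl6, Ccl3 and Ccl4 follow each other on the chromosome as neighbouring protein-coding genes. Ccl6 (1417266_PM_at) read 5.40 and 5.40 log2 in NASH+ISO, 6.52 and 6.45 log2 in NASH, and 5.23 and 5.28 log2 in CTL. Both NASH arrays stood about 1 log2 above all others. The gene was 2.34-fold higher in NASH than in CTL (1.23 ± 0.0426 log2, SE, adjusted p = 9.4e-07) and 0.472 times the NASH level in NASH+ISO (adjusted p = 9.23e-06). It was the sole member gene past 2-fold between NASH+ISO and NASH, on both of its probe sets (0.472 and 0.429 times). Against CTL, NASH+ISO stood 0.14 log2 higher on the brighter set (adjusted p = 0.0316) and -0.06 log2 on the other (adjusted p = 0.625). That small difference lost its call without any 1 of the CTL or NASH+ISO arrays (adjusted p = 0.0557 to 0.13).

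Ccl9 (1417936_PM_at), the brightest member, read 9.08 and 9.09 log2 in NASH+ISO, 9.27 and 9.25 log2 in NASH, and 8.63 and 8.62 log2 in CTL. The groups did not overlap, and NASH+ISO lay nearer to NASH than to CTL. It was 1.55-fold higher in NASH than in CTL (adjusted p = 1.07e-05), and NASH+ISO was 1.37-fold above CTL (adjusted p = 7.41e-05). The fall of NASH+ISO against NASH was 0.889 times (adjusted p = 0.011), and it lost its call without NASH array 1 (adjusted p = 0.0621) and under quantile normalization (adjusted p = 0.0515). A dimmer Ccl9 probe set gave larger differences in the same directions, 2.02-fold in NASH against CTL and 0.684 times in NASH+ISO against NASH.

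Ccl5 (RANTES), an attractant of T cells and monocytes that T cells and NK cells make, read 4.92 and 4.88 log2 in NASH+ISO, 5.18 and 5.17 log2 in NASH, and 4.75 and 4.79 log2 in CTL. NASH stood highest with no overlap. The rise in NASH against CTL was 1.32-fold (adjusted p = 0.000148), and NASH+ISO was 0.829 times NASH (adjusted p = 0.0019), a fall that lost its call with the workbook values (adjusted p = 0.0591). NASH+ISO against CTL, at 0.13 log2, lost its call without any 1 of the 6 arrays (adjusted p = 0.0582 to 0.134). Ccl3 lay under the guide, and Ccl4, an attractant of monocytes and T cells, was 0.14 log2 lower in NASH than in CTL (-0.14 log2, adjusted p = 0.0386), a call lost under 8 of 14 alternatives.

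Ccl27a, a ligand of Ccr10 known from skin, read 4.53 and 4.53 log2 in NASH+ISO, 4.16 and 4.21 log2 in NASH, and 5.32 and 5.31 log2 in CTL. CTL stood highest and NASH lowest. The level in NASH was 0.457 times that of CTL (adjusted p = 9.65e-07), and NASH+ISO was 1.27-fold above NASH (adjusted p = 0.00059) and 0.581 times CTL (adjusted p = 7.62e-06). Its probe set is of the type whose probes may match other transcripts, and no other probe set names Ccl27a alone. Ccl28, the other ligand of Ccr10, made in mucosa, read 4.00 and 4.00 log2 in NASH+ISO, 4.00 and 3.88 log2 in NASH, and 4.23 and 4.26 log2 in CTL. NASH+ISO and NASH overlapped and lay below CTL. It was 0.808 times CTL in NASH (adjusted p = 0.00196), and NASH+ISO was 0.843 times CTL (adjusted p = 0.00671). A dimmer Ccl28 set went the other way in NASH+ISO against CTL, at 0.33 log2 (adjusted p = 0.0102), so no direction is given for Ccl28 there. In NASH+ISO against NASH it was 0.38 log2 higher (adjusted p = 0.00624), where the brighter set gave 0.06 log2 (adjusted p = 0.376). Both calls on the brighter set were lost with the workbook values (adjusted p = 0.0757 and 0.371).

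Ccl24, an eotaxin that draws eosinophils through Ccr3, was 0.25 log2 higher in NASH+ISO than in NASH (adjusted p = 0.00248) and 0.29 log2 higher than in CTL (adjusted p = 0.00101), with the last call lost with the workbook values (adjusted p = 0.0524). Ccl25, the gut and thymus ligand of Ccr9, was 0.24 log2 lower in NASH than in CTL (-0.24 log2, adjusted p = 0.0182), a call lost without CTL array 1 or NASH array 2 (highest adjusted p = 0.107). Ccl2, the main monocyte attractant, lay near the guide in all groups, with means of 2.82, 2.82 and 2.92 log2 in NASH+ISO, NASH and CTL, and was not called in any comparison. Ccl17, Ccl20, Ccl22 and Cx3cl1 lay above the guide and were not called on their brightest probe set in any comparison, with differences between -0.11 and 0.17 log2. A dimmer Cx3cl1 set was lower in NASH than in CTL (-0.21 log2, adjusted p = 0.00543) and in NASH+ISO than in CTL (-0.15 log2, adjusted p = 0.0289). On that set NASH and NASH+ISO lay under the guide, with means of 2.71 and 2.78 log2, so the size of these falls is not known.

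**Figure D3:**
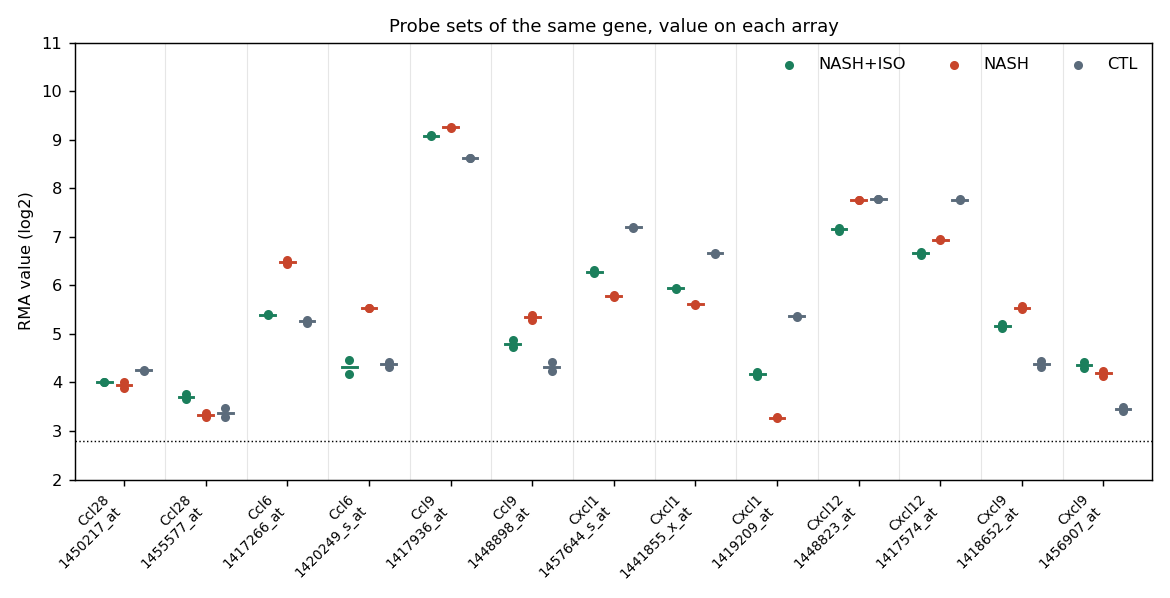
RMA value (log2, y axis) on each array for the probe sets above the guide of 6 genes that have several, ordered by gene and then by brightness. Colours as for the plot of single genes, with NASH+ISO in green, NASH in red and CTL in grey. The Cxcl1 and Ccl9 sets keep the order of the 3 groups, both Ccl6 sets put NASH highest but differ in the order of NASH+ISO and CTL, the Cxcl12 sets differ in NASH against CTL, and the Cxcl9 and Ccl28 sets differ in NASH+ISO against another group.

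Of the 19 receptors, 10 lay above the guide. Among probe sets above the guide, the median absolute difference in NASH against CTL was 0.181 log2 for receptors and 0.276 log2 for ligands. It was 0.169 and 0.172 log2 in NASH+ISO against NASH, which is nearly the same, and 0.083 and 0.185 log2 in NASH+ISO against CTL. Cxcr3, the receptor of Cxcl9, Cxcl10 and Cxcl11, was 0.21 log2 higher in NASH than in CTL (adjusted p = 0.00849), a call lost without NASH array 2 (adjusted p = 0.0513).

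Cxcr2, the neutrophil receptor of Cxcl1, read 4.11 and 4.06 log2 in NASH+ISO, 3.86 and 3.85 log2 in NASH, and 4.27 and 4.19 log2 in CTL. NASH stood lowest and CTL highest. It was 0.771 times the CTL level in NASH (adjusted p = 0.000376) and 1.17-fold the NASH level in NASH+ISO (adjusted p = 0.00679). NASH+ISO against CTL, at -0.15 log2, lost its call without any 1 array other than CTL array 2 (adjusted p = 0.0549 to 0.147). Ccr6, the receptor of Ccl20 on B cells and T cells, read 3.71 and 3.75 log2 in NASH+ISO, 3.52 and 3.53 log2 in NASH, and 3.91 and 3.78 log2 in CTL. NASH stood lowest. It was 0.801 times the CTL level in NASH (adjusted p = 0.00212), and the 0.21 log2 rise in NASH+ISO against NASH (adjusted p = 0.0211) lost its call without any 1 of the 4 arrays compared (adjusted p = 0.0584 to 0.0939). Ccr4, the receptor of Ccl17 and Ccl22, was 0.24 log2 lower in NASH than in CTL (-0.24 log2, adjusted p = 0.00184).

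Ccr2, the receptor of Ccl2 on monocytes, has 4 probe sets that did not move together. Its brightest set read 0.09 log2 in NASH minus CTL (adjusted p = 0.364). A dimmer set rose by 0.47 log2 (adjusted p = 7.98e-05) and was lower in NASH+ISO than in NASH (-0.31 log2, adjusted p = 0.00113). The CTL arrays of that dimmer set lay under the guide, at 2.68 and 2.68 log2, so the size of its rise is not known. Cx3cr1, the receptor of Cx3cl1 on monocytes, was not called on its brightest set in any comparison, nor were Ccr7 and Ccr10. Cxcr4, the receptor of Cxcl12, had a mean under the guide, and its 2 NASH arrays alone stood above the guide, at 2.86 and 3.07 log2, against 2.49 and 2.40 log2 in NASH+ISO and 2.47 and 2.60 log2 in CTL. Its differences, 0.43 log2 in NASH against CTL and -0.52 log2 in NASH+ISO against NASH, passed the test (adjusted p = 0.00388 and 0.00248), and the lower groups lie under the guide, so their size is not known. Cxcr7, now named Ackr3, an atypical receptor that takes up Cxcl12, also had a mean under the guide.

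**Figure D4:**
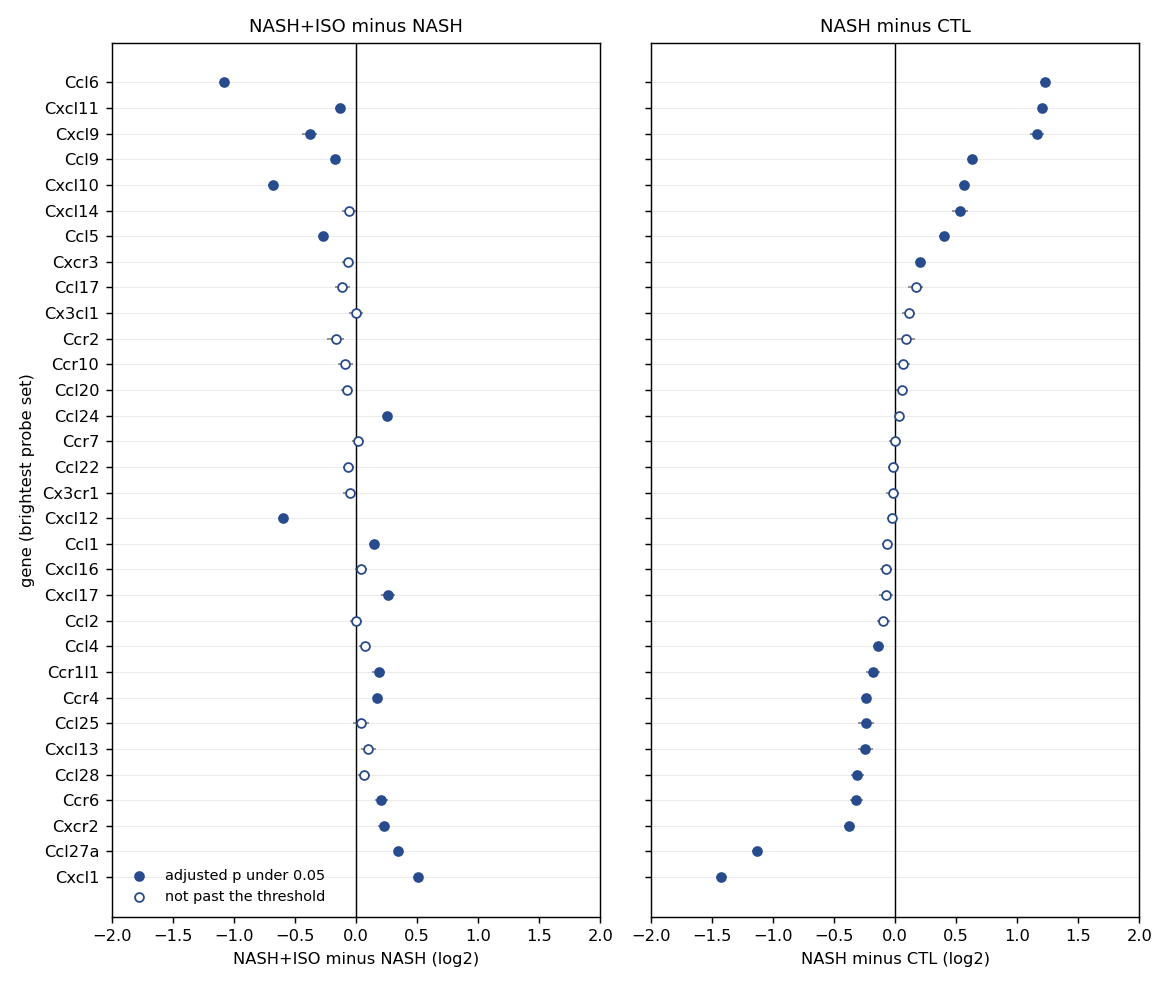
Difference in log2 (x axis) for 32 genes with a mean above the guide (y axis, brightest probe set, ordered by NASH minus CTL), for NASH+ISO minus NASH on the left and NASH minus CTL on the right. Points are estimates, bars 1 SE, and filled points have an adjusted p under 0.05. Both comparisons use the same NASH arrays, so a high or low NASH value enters both with opposite sign. Cxcl1 is lowest on the right at -1.42 log2 and Ccl6 highest at 1.23 log2, and Ccl6 is lowest on the left at -1.08 log2.

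In NASH+ISO against NASH, the question was what isorhamnetin did in the diseased liver. On the brightest probe set of each gene, Ccl6, Cxcl10 and Cxcl12 were lower in NASH+ISO by more than 0.5 log2. Cxcl1 was higher by 0.51 log2 on its brightest set, and by 0.47 to 0.57 log2 over the alternative settings. Other sets above the guide gave -0.28 log2 for Cxcl12, and 0.33 and 0.90 log2 for Cxcl1. At an adjusted p under 0.05, 16 member probe sets were higher and 17 lower, against 19.5% and 17.7% of all probe sets. The members were 20.5% higher and 21.8% lower, near the shares of all probe sets. With each array centred on its median, 12 members were higher and 18 lower, and over all probe sets 6711 were higher and 9473 lower. Without NASH array 2, fewer members were called higher, and also fewer of all probe sets. Past 2-fold, 0 members were higher (0.238% of all) and 2 lower (0.533% of all), both Ccl6. Among probe sets above the guide, 17.02% of the members differed by more than 0.5 log2, against 8.619% of all. Beside the genes described above, Ccl1 (0.15 log2) and Ccr1l1 (0.18 log2) stood above NASH with isorhamnetin, Ccr4 did so by 0.17 log2, and each of these 3 calls was lost under at least 1 alternative. Under the guide, Ccl11 (0.15 log2) was called higher, and Ccl7 (-0.14 log2), Ccr9 (-0.22 log2) and Cxcr7 (-0.35 log2) lower, on the brightest set of each, and all but the Cxcr7 call were lost under at least 1 alternative. A dimmer Ccr9 set was called the other way (0.28 log2, adjusted p = 0.00618) and kept its call under all 12 alternatives run on it, so no direction is given for Ccr9.

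In NASH+ISO against CTL, the question was where the treated livers stood beside healthy liver. Cxcl11 stood 2.10-fold above CTL, Cxcl9 0.78 log2 above, and Cxcl14 and Ccl9 0.47 and 0.46 log2 above. Cxcl1, Ccl27a and Cxcl12 stood below CTL, at -0.91, -0.78 and -0.63 log2. At an adjusted p under 0.05, 17 member probe sets were higher and 18 lower, against 21.2% and 21.5% of all probe sets. Leaving out either NASH+ISO array left fewer lower calls among the members, and also fewer over all probe sets. Past 2-fold, 1 member was higher, Cxcl11 (1.35% of all probe sets), and 2 lower, 1 probe set each of Cxcl1 and Cxcl12 (0.79% of all). None of the 11 CC receptors was called on its brightest probe set. Under the guide, Ccl11 (0.21 log2) and Cxcr5 (0.18 log2) were called higher, and Cxcr6 (-0.23 log2), Cxcr7 (-0.21 log2) and Xcr1 (-0.15 log2) lower, and of these 5 only the Ccl11 call was kept under every alternative. The values of this comparison share arrays with both others, and each gene's values are given side by side and not as independent evidence. Over the 3 comparisons, 103 calls were made among the members, the counts given above beside the shares of all probe sets. Of these, 60 kept their call under every alternative that gave a value. Kept calls were not counted over all probe sets, so whether member calls are more or less stable than others is not known. Only 1 call, Cxcl11 in NASH+ISO against NASH, changed direction, under 1 alternative.

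Genes known to induce chemokines were followed from a fixed list of 18 cytokines, receptors and transcription factors. In NASH against CTL, 6 rose, 3 fell and 9 were not called, with a list median of 0.03 log2 against -0.04 log2 over all probe sets. Jun, a subunit of AP-1, rose by 1.54 log2 in NASH and was 0.91 log2 lower in NASH+ISO than in NASH (-0.91 log2). Egr1 rose by 0.97 log2, and Nfkbia, an inhibitor of NF-kB that NF-kB itself induces, was lower by 0.71 log2 (-0.71 log2). The cytokines Tnf, Il1a, Il1b, Il6 and Ifng were not called in any comparison, and Il6 and Ifng lay under the guide.

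Of 20 genes of receptor signalling, 8 rose and 1 fell in NASH against CTL, with a median of 0.09 log2, and 1 rose and 4 fell in NASH+ISO against NASH, with a median of 0.04 log2 against 0.02 log2 over all probe sets. Rgs2, which shortens signalling of G proteins, was 3.26-fold higher in NASH than in CTL and 0.499 times the NASH level in NASH+ISO. Adrbk2, the receptor kinase now named Grk3, was 0.92 log2 higher in NASH. Dock2, which drives leukocyte migration, was lower in NASH (-0.33 log2). Of 15 genes of adhesion and diapedesis, 3 rose and 2 fell in NASH (median 0.02 log2), the rises being Vcam1 (0.68 log2), Itgb1 (0.49 log2) and Itgal (0.44 log2). Of 11 genes that cleave chemokines or present them on proteoglycans, 4 rose and 4 fell (median -0.03 log2). Mmp14 rose by 0.91 log2 in NASH and Adam10, the sheddase of Cx3cl1 and Cxcl16, by 0.59 log2. Sdc4, a heparan sulphate proteoglycan, was lower by 0.95 log2 (-0.95 log2), and Dpp4, the peptidase that trims Cxcl10 and Cxcl12, by 0.78 log2 (-0.78 log2). Mmp12 was 0.81 log2 higher in NASH, with NASH+ISO and CTL under the guide. Among 5 atypical receptors and decoys, 2 fell and none rose in NASH (median -0.06 log2), Ccrl2 (-0.23 log2) and Ccbp2 (-0.15 log2). Of a chosen list of 4 ligands outside the naming rule, all were called higher in NASH (median 0.22 log2). Cklf rose by 0.45 log2, Mif by 0.26 log2, Ppbp by 0.18 log2 and Pf4 by 0.15 log2, and Ppbp lay under the guide. The Pf4 call was lost under 4 of 14 alternatives and the Ppbp call under 3 of 13.

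Markers of the cells that make or bear chemokines were read beside the members. Among 6 Kupffer cell markers, 3 rose and 1 fell in NASH against CTL, and the list mean per array was 4.86 and 4.88 log2 in NASH+ISO, 5.19 and 5.19 log2 in NASH, and 4.70 and 4.76 log2 in CTL. Cd5l rose by 1.31 log2 and Marco by 1.18 log2 in NASH, while Clec4f, which defines resident Kupffer cells, did not pass (-0.03 log2). Folr2 was the marker that fell, at -0.20 to -0.02 log2 over the alternative settings, a call lost under 8 of 14 alternatives. Of 8 measured monocyte and macrophage markers, which include the member Ccr2, 1 rose and 1 fell in NASH, and 4 fell in NASH+ISO against NASH, with list means of 4.47 and 4.46 log2 in NASH+ISO, 4.80 and 4.84 log2 in NASH, and 4.75 and 4.78 log2 in CTL. Lyz2 read 0.67 log2 in NASH against CTL and -1.39 log2 in NASH+ISO against NASH. Csf1r was the marker that fell in NASH against CTL, at -0.57 to -0.41 log2 over the alternative settings. Among 7 stellate cell markers, 4 rose and 2 fell in NASH, and 5 fell in NASH+ISO against NASH, with list means of 5.82 and 5.83 log2 in NASH+ISO, 6.39 and 6.43 log2 in NASH, and 5.74 and 5.75 log2 in CTL. Of these, Pdgfrb (1.80 log2) and Col1a1 (1.13 log2) rose in NASH and fell in NASH+ISO against NASH (-1.63 and -1.13 log2). Acta2 also rose in NASH, but in NASH+ISO it stayed above CTL, by 1.25 to 1.34 log2 over the alternative settings. Lrat and Dcn fell in NASH against CTL, at -0.35 to -0.22 log2 and -0.31 to -0.16 log2 over these settings. In NASH+ISO against CTL, 3 of the 7 stellate cell markers were higher and 2 lower. Of 7 measured neutrophil markers, 1 fell in NASH, and the list means were 3.21 and 3.25 log2 in NASH+ISO, 3.14 and 3.18 log2 in NASH, and 3.24 and 3.25 log2 in CTL. Of 9 T cell markers, 0 rose and 3 fell in NASH, and of 7 NK cell markers 1 rose and 1 fell. Among 7 endothelial markers, 2 rose and 2 fell in NASH and 5 rose in NASH+ISO against NASH, where Cxcl12 fell, with list means of 5.68 and 5.66 log2 in NASH+ISO, 5.21 and 5.25 log2 in NASH, and 5.20 and 5.24 log2 in CTL. The part that cell numbers play in the differences of the members was not tested.

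**Figure D5:**
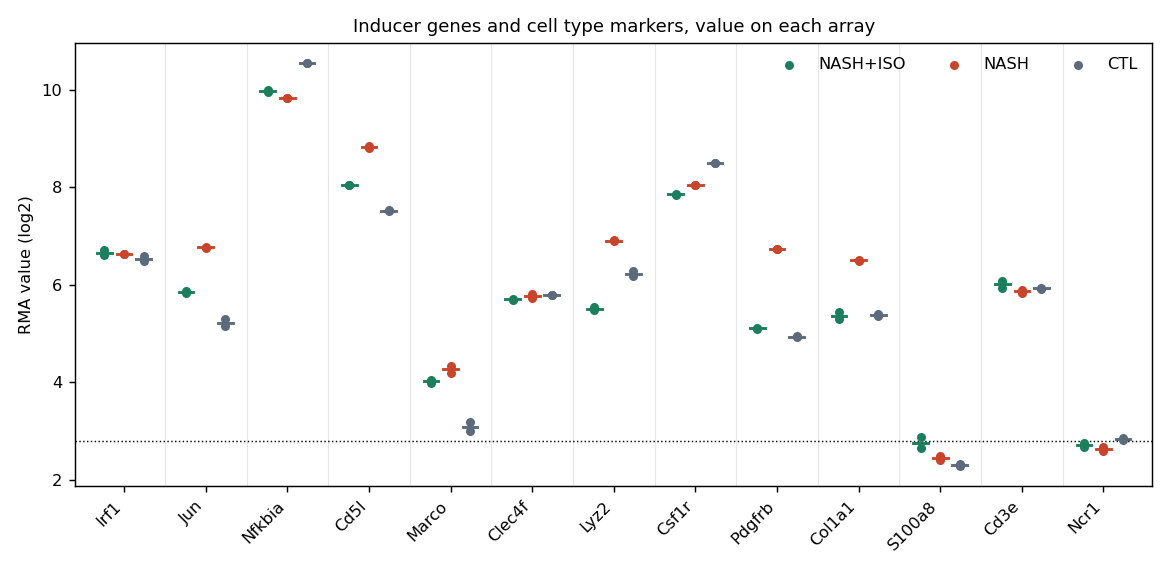
RMA value (log2, y axis) on each array for inducers of chemokine genes (Irf1, Jun, Nfkbia) and markers of Kupffer cells (Cd5l, Marco, Clec4f), monocytes and macrophages (Lyz2, Csf1r), stellate cells (Pdgfrb, Col1a1), neutrophils (S100a8), T cells (Cd3e) and NK cells (Ncr1). NASH+ISO is green, NASH red and CTL grey, and the dotted line is the guide at 2.80 log2. Pdgfrb and Col1a1 are high on the NASH arrays alone, and Clec4f and Cd3e lie close together in all groups.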

How the data were processed

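Liver RNA of 3 groups of mice, 2 arrays each, was hybridized to Affymetrix MG-430 PM arrays. The authors deposited log2 values in a value table and, per their methods, used RMA in the Expression Console software, which corrects background, normalizes between arrays and combines the probes of each set. RMA values show change relative to other genes. The authors deposited further log2 values of these arrays in 2 workbooks, differing on average by -0.0994 log2. Which step made the value table and which the workbooks is not stated. The workbooks also hold fold changes and p-values of the authors' own comparisons with CTL, which were not used. Gene symbols came from the NASH against CTL workbook.

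Of 45141 entries, 104 controls were dropped. The remaining 45037 probe sets were tested with limma 3.58.1 (R 4.3.3), fitting 1 mean per group over 6 arrays (3 residual and 4.01 prior degrees of freedom), with Benjamini-Hochberg adjustment over all of them. The script was first tested on simulated data. Each gene was read on its member probe set with the highest mean, and other sets are given where they were called in the opposite direction. Genes above the guide are named with values, those with the largest called differences on every array, and up to 4 genes per list. A few genes that the rule would name are not reported here. Further names were chosen after their values were seen. The members and gene lists were chosen with earlier results of these data known. Of the list genes, 4 were not matched. Promoters were searched and figures drawn in Python 3.11.15 with pandas 2.3.3 and matplotlib 3.10.9. The settings varied were the arrays fitted (the 4 compared alone), a prior trend on level, median centring, quantile normalization, workbook values, probe sets above the guide alone, 1 probe set per gene, a replicate block, a lower fold threshold, and leaving out each array.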

Additional observations from a re-analysis of the deposited data

How the results depend on the processing

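With 1 probe set per gene, NASH against CTL had 10 lower members and 5 past 2-fold, NASH+ISO against NASH had 10 higher and 1 past 2-fold, and NASH+ISO against CTL had 11 higher, 10 lower and 1 past 2-fold, since 49 members were tested in place of 78. At a fold change of at least 1.5, 5 members passed in NASH+ISO against NASH and 10 in NASH+ISO against CTL. Leaving out 1 array at a time gave 10 to 16 higher members in NASH+ISO against NASH and 9 to 15 lower members in NASH+ISO against CTL. Of 588 alternative values for the 14 genes with the largest differences, 536 counted as unchanged, 48 lost the call, 3 gained one and 1 reversed. A change of sign was counted as a reversal only where the main value was called, so the 536 can include sign changes of uncalled values. The reversal was Cxcl11 in NASH+ISO against NASH, at 0.048 log2 with the workbook values (adjusted p = 0.399). The cause was not tested. All other counts of members stayed within 1.5 times.

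The arrays of different groups that share a number deviated from their group means with correlations of 0.0465, 0.047 and 0.0916. These values show no strong shared deviation by number. They cannot decide whether arrays of the same number were handled together, which was not tested. With the number as a replicate block, the members split into 16 higher, 19 lower and 9 past 2-fold for NASH over CTL, 16, 17 and 2 for NASH+ISO over NASH, and 17, 17 and 3 for NASH+ISO over CTL. Among the 14 genes the block removed 1 call, Cxcl10 in NASH+ISO against CTL (adjusted p = 0.056).

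With 2 arrays per group, the number of arrays limits the precision, and leaving out 1 array leaves a group with a single array that is assumed to vary like the others. Of the 49 genes, 16 lie under the background guide, and the size of their differences is not known.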
